A study of Mus musculus with 235 samples.

Results

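The interferon-induced genes are genes whose transcription rises when a cell senses interferon, the cytokine family that warns tissue of viruses and bacteria. A list of 39 such mouse genes was taken by symbol, and each was read from the probe set annotated with that symbol alone, the one with the highest mean where there were several. That gave 35 of the 39 genes, among 18146 genes measured in all. Isg15, Ifi44, Oas1g and Tgtp1 had no probe set carrying their symbol alone and are not described. The list was not chosen by any threshold on these values, but it was drawn up with earlier results of the same data known.

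The study took RNA from liver, always the left lobe, of females from 31 inbred mouse strains that were 8 to 10 weeks old when dosing began. Vehicle animals were given sterile water by gavage, and isoniazid animals received 100 mg/kg of isoniazid, an antibiotic against tuberculosis that can injure the liver, by the same route daily for 3 days. Livers were collected 24 h after the last dose. Each strain had 4 vehicle animals, 124 in all. The isoniazid groups held 111 animals, with 4 in 22 strains, 3 in 5 strains and 2 in 4 strains, since animals that died during dosing were left out by the submitters. An isoniazid group in those 9 strains is therefore a group of survivors. By the submitters' code, isoniazid led to steatosis, the storage of fat in hepatocytes, in 13 strains, and 18 strains were coded as free of it. Each array measured 1 animal, and its values are on a log2 scale, so a difference of 1 is a doubling of signal. Hepatocyte markers fixed as a list, among them Alb, averaged between 12.99 and 13.51 over the strains in vehicle livers. Markers of other cells were also measurable, which is given beside the results they touch.

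Interferons reach the liver cell through cell-surface receptors and the kinases bound to them. Type I interferon activates a complex that includes Stat2 and Irf9 and binds the interferon-stimulated response element in DNA, and many genes induced by interferon gamma carry a gamma-activated site. In the liver, hepatocytes, Kupffer cells and endothelial cells all answer interferon, and a low level of these transcripts is present without infection. That resting level is known to differ between healthy individuals and between inbred strains.

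The stretches of DNA before the start sites of some of the genes are shown for 2 reasons. Most of the genes move together, and the response element core lies before many of them. Promoter entries from RefSeq, build GRCm38.p6, were matched by symbol to 29 of the 39 listed genes and to 25 of the 35 measured ones, and the 250 bases before each start site were searched on both strands. The response element core was searched as GAAANNGAAA, whose reverse complement is TTTCNNTTTC, with overlapping matches allowed. It was found for 13 of the 25 measured genes with an entry (52%), against 3.46% of the 27025 genes with an entry. Of the measured genes, 9 of the 16 that were lower under isoniazid and 4 of the 9 that were not called held a match. The core of the gamma-activated site, searched as TTCNNNGAA, was found for 6 of the 25 (24%), against 8.13% of all genes, and all 6 (Bst2, Eif2ak2, Ifit2, Igtp, Irf1 and Oas1a) were lower under isoniazid. A match describes letters in the window and is not evidence of a bound site. Capitals mark the response element core, each stretch runs 5′ to 3′ along the gene's own strand, and positions are counted from the start site.
Rsad2: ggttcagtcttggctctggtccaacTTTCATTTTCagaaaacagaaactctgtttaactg
Ifit1: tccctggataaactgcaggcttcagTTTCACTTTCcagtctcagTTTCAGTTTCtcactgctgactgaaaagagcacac
Ifit3: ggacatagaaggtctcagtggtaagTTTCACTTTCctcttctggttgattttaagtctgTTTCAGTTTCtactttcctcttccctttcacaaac
Igtp: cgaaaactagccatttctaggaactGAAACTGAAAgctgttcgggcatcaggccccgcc
Gbp3: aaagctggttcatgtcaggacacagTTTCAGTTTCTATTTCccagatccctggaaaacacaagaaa
Oas3: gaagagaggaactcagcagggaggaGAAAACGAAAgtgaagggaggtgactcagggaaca
The Rsad2 stretch lies at chr12:26456538-26456597 on the minus strand. Those of Ifit1 (chr19:34640760-34640838) and Ifit3 (chr19:34583348-34583441) lie on the plus strand of the same chromosome and hold 2 matches each. The Igtp stretch is at chr11:58199497-58199555 and the Gbp3 stretch at chr3:142559974-142560039, both on the plus strand. The Gbp3 stretch holds 2 overlapping matches. The Oas3 stretch, at chr5:120777700-120777759 on the minus strand, is shown because it holds a match although Oas3 was the gene nearest to no change. A match was thus found both among genes that fell and among genes that were not called. Whether the core bears on the fall was not tested.

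Under isoniazid most of the 35 listed interferon-induced genes shifted down. The difference between isoniazid and vehicle strain means was tested in limma over 31 strains, with the strain as the replicate and p-values adjusted over all 18146 genes. By that test 23 of the 35 genes fell and none rose, at an adjusted p under 0.05. In the same comparison 9.85% of all genes were called lower and 10.2% higher. All 35 genes had a mean change below 0, as did 49.4% of all genes. The median change of the 35 was −0.22 log2 units, and that of all genes was 0.00.

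**Figure D1:**
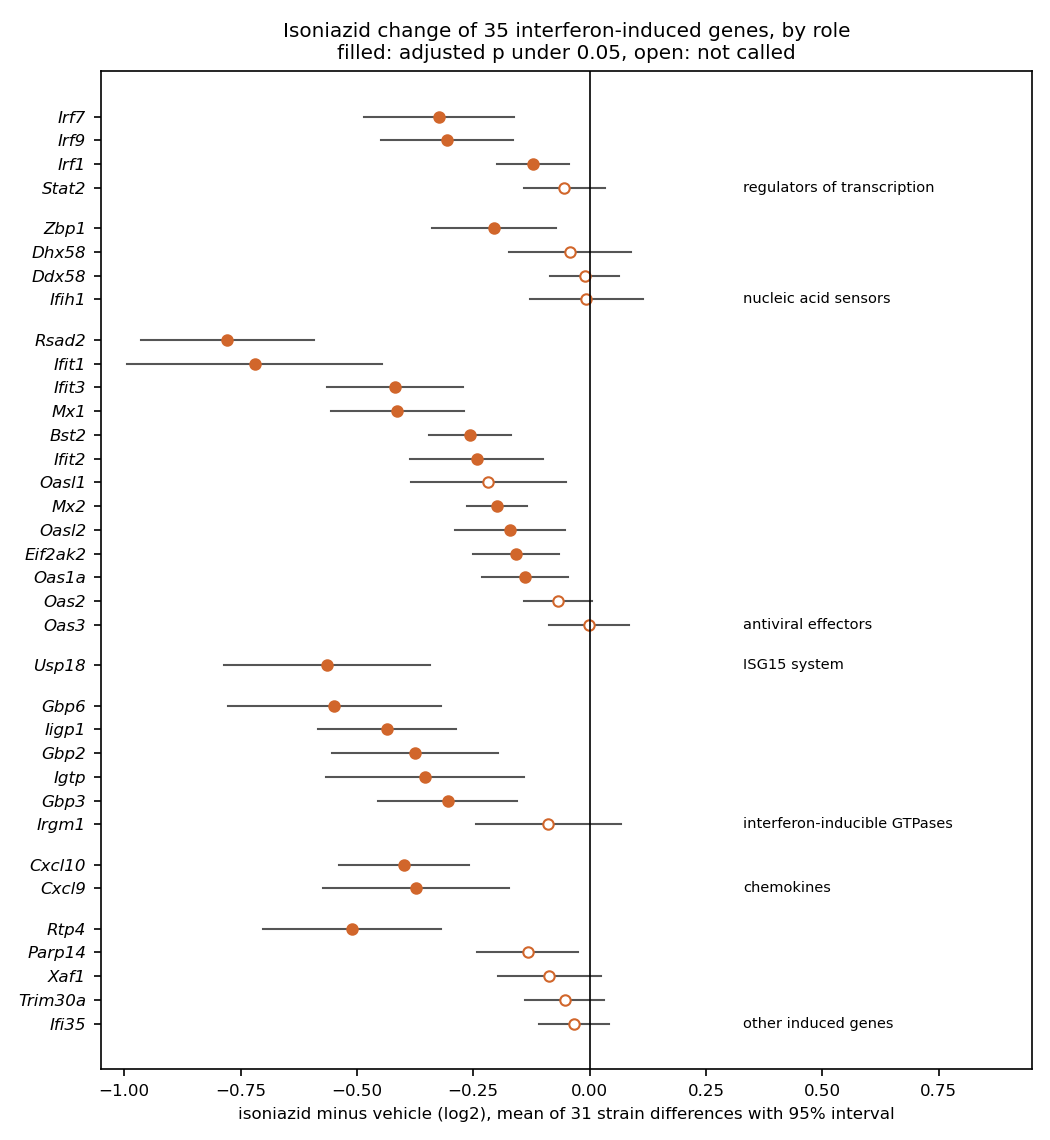
Mean isoniazid minus vehicle difference (log2, horizontal axis) of each of the 35 genes over 31 strains, with 95% intervals as lines and genes grouped by role. Filled points were called at an adjusted p under 0.05; all points lie at or left of 0, from −0.78 for Rsad2 to 0.00 for Oas3.

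Among the antiviral effectors, the proteins that block steps of viral growth, 10 of 13 fell. Rsad2 encodes viperin, an enzyme that makes a chain-terminating nucleotide against viral polymerases. Its vehicle strain means ran from 5.46 in SWR/J through a median of 6.98 to 8.07 in BUB/BnJ, and its isoniazid means from 5.24 in 129S1/SvImJ through 6.23 to 7.83 in BUB/BnJ. The 2 ranges overlapped, but within strains the isoniazid mean was the lower in 28 of 31. The change of Rsad2 was −0.78 ± 0.09 (SE, n = 31 strains; limma adjusted p = 8.15e-08), a 1.72-fold higher level in vehicle livers. All 3 Rsad2 probe sets were lower, by mean changes of −0.78, −0.83 and −0.54. The lowest strain changes of Rsad2 were in BALB/cJ (−1.77) and NOD/LtJ (−1.74), and the 3 strains above 0 were SJL/J (0.07), C58/J (0.06) and PWK/PhJ (0.05).

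Ifit1 encodes a protein that binds viral RNA lacking the host's cap methylation. Its vehicle strain means spanned 3.26 (SWR/J) to 7.35 (CBA/J) with a median of 5.44, and its isoniazid means 3.30 (SWR/J) to 6.89 (BUB/BnJ) with a median of 4.81. The change of Ifit1 was −0.72 ± 0.14 (SE, n = 31 strains; limma adjusted p = 0.000133), with 24 strains lower. Its neighbour on chromosome 19, Ifit3, which works in the same complex, ran from 4.66 (C58/J) to 7.29 (BUB/BnJ) in vehicle livers and from 4.46 (RIIIS/J) to 7.21 (BUB/BnJ) under isoniazid. Ifit3 changed by −0.42 ± 0.07 (limma adjusted p = 3.88e-05), lower in 25 of 31 strains. Ifit2, of the same family, fell by 0.24.

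Mx1 encodes a dynamin-like GTPase that traps viral ribonucleoproteins, and most classical inbred strains are known to carry a defective allele of it. Its signal was dim, from 2.23 (CE/J) through 2.85 to 4.68 (BUB/BnJ) in vehicle livers and from 2.08 (FVB/NJ) through 2.55 to 4.51 (BUB/BnJ) under isoniazid. Mx1 was lower in 29 of 31 strains, the most of any of the 35 genes, with a change of −0.41 ± 0.07 (SE; limma adjusted p = 3.56e-05). Mx2, its paralog, fell by 0.20 and was lower in 28 strains. Bst2, known as tetherin, which holds budding virions at the cell surface, fell by 0.26 from a vehicle mean of 8.80 and was lower in 27 strains. Eif2ak2, the kinase PKR that stops translation on sensing double-stranded RNA, fell by 0.16.

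The oligoadenylate synthetase family, which makes the activator of RNase L or related RNA sensors, was split. Oas1a fell by 0.14 and Oasl2, a dim probe set with a vehicle mean of 2.42, fell by 0.17. Oasl1 had a change of −0.22 with an adjusted p of 0.0561 in limma, and Oas2 had −0.07 (limma adjusted p = 0.202). Oas3 had the mean change nearest to 0, 0.00 ± 0.04 (SE, limma adjusted p = 0.989), with 15 strains lower. Its vehicle means kept to a narrow range, 5.40 (129S1/SvImJ) to 5.97 (AKR/J), and so did its isoniazid means, 5.38 (RIIIS/J) to 6.05 (SEA/GnJ). The interval of the Oas3 change was −0.09 to 0.08. Members of this family are near-identical in places, and the probes of one may read another.

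Usp18 removes the ubiquitin-like protein ISG15 from its targets and also damps signalling at the type I receptor. Its vehicle strain means ran from 4.15 (SWR/J) through 6.43 to 8.03 (BUB/BnJ), the widest span of the 35 beside those of Ifit1 and Gbp6. Under isoniazid Usp18 ran from 3.66 (SWR/J) through 5.84 to 8.02 (BUB/BnJ). It changed by −0.56 ± 0.11 (SE, n = 31 strains; limma adjusted p = 0.000192) and was lower in 25 strains.

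Of the interferon-inducible GTPases, which attack the vacuoles of intracellular bacteria and parasites, 5 of 6 fell. Gbp6 ran from 3.30 (129S1/SvImJ) through 5.49 to 7.76 (BUB/BnJ) in vehicle livers and from 3.55 (SM/J) through 4.73 to 8.10 (BUB/BnJ) under isoniazid. Its change was −0.55 ± 0.11 (SE; limma adjusted p = 0.000413), lower in 26 strains, and its second probe set gave −0.57. Iigp1 ran from 10.10 (129S1/SvImJ) through 11.16 to 11.90 (NOD/LtJ) in vehicle livers and from 9.10 (PWK/PhJ) through 10.86 to 11.72 (BUB/BnJ) under isoniazid. Iigp1 changed by −0.44 ± 0.07 (SE; limma adjusted p = 3.07e-05) and was lower in 26 strains, with −0.47 on its second probe set. Gbp2, Igtp and Gbp3 fell by 0.37, 0.35 and 0.30. Irgm1, a regulator of the other immunity-related GTPases, had a change of −0.09 with an interval of −0.24 to 0.07 and an adjusted p of 0.492 in limma.

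Both measured chemokines fell. Cxcl10 and Cxcl9 attract T cells and natural killer cells bearing the receptor Cxcr3. Cxcl10 had vehicle means from 3.90 (PWK/PhJ) to 5.99 (A/J) and a change of −0.40 ± 0.07 (limma adjusted p = 4.51e-05), lower in 26 strains. Cxcl9 had vehicle means from 4.85 (PWK/PhJ) to 7.84 (BUB/BnJ) and a change of −0.37 ± 0.10 (limma adjusted p = 0.00524), lower in 23 strains. The second Cxcl9 probe set, dim at a mean of 2.78, changed by −0.13 and was lower in 17 strains.

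Among regulators of transcription, 3 of 4 fell. Irf7, which amplifies the type I response, fell by 0.32 and Irf9, the DNA-binding subunit of the complex with Stat2, by 0.31, with limma adjusted p-values of 0.00257 and 0.00135. Irf1, induced mainly by interferon gamma, fell by 0.12. Stat2 had −0.05 (limma adjusted p = 0.439). Of the nucleic acid sensors 1 of 4 fell. Zbp1, a sensor of Z-form nucleic acid, fell by 0.21. Its second probe set, at a mean of 4.20, changed by −0.06 and was lower in 17 strains. Ddx58 (RIG-I) and Ifih1 (MDA5), RNA helicases that start the interferon response, had changes of −0.01 and −0.01. The related helicase Dhx58 (LGP2) had −0.04, and none of these helicases was called. Ifih1 ran from 5.89 (C58/J) through 6.96 to 7.82 (LG/J) in vehicle livers and from 5.99 (NOR/LtJ) through 6.98 to 7.88 (LG/J) under isoniazid, with 16 strains lower.

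Rtp4, a chaperone of membrane receptors that is strongly induced by interferon, was the only gene of the remaining group that fell. Its vehicle means ran from 5.39 (PWK/PhJ) through 7.42 to 9.08 (CBA/J) and its isoniazid means from 4.94 (PWK/PhJ) through 6.87 to 8.79 (BUB/BnJ). The change of Rtp4 was −0.51 ± 0.09 (SE; limma adjusted p = 0.000109), lower in 22 strains. With its 2 probe sets averaged it was −0.29, since the second set was dim, at a mean of 2.65, and changed by −0.06. Parp14, Xaf1, Trim30a and Ifi35 had changes between −0.13 and −0.03 and were not called (Parp14 at a limma adjusted p of 0.0747). The second Trim30a probe set, at a mean of 3.76, changed by −0.17 and was lower in 21 strains. Other probe sets gave −0.08 for Xaf1, −0.0008 for Parp14, and −0.04 and 0.02 for Ifi35. Over the 35 genes, 15 had more than 1 probe set.

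Arrays were scanned on 10 dates with strains and treatments mixed over them. Taken within each date, after removing the strain, the mean change over the 35 genes was below 0 on all 10, from −0.03 to −0.32. Rsad2, Ifit1, Usp18, Gbp6, Iigp1, Ifit3, Mx1, Cxcl9, Cxcl10, Gbp2, Bst2 and Zbp1 were each lower on all 10 dates.

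The liver samples were whole tissue, so fewer cells of a type and less RNA per cell cannot be told apart. Markers of macrophages, which respond to interferon and in the liver are mostly Kupffer cells, also fell. Of 16 markers 9 were called lower in limma, where 9.85% of all genes were, with a median change of −0.20. The called markers with the largest t were Csf1r (−0.28), Cd5l (−0.28), Lyz2 (−0.26) and C1qc (−0.22), and the Kupffer cell marker Clec4f changed by −0.21. The strain averages of the macrophage list ran from 5.81 to 7.75 in vehicle livers and from 5.52 to 8.01 under isoniazid. In vehicle livers its members ran from 2.58 for Itgam to 9.47 for Cd5l, and an array value has no true 0. Across animals within strain and treatment, the mean of the macrophage markers and the mean of the 35 genes had r = 0.66 over 235 arrays, a description of values that share each array. The part of macrophages in the fall was not tested.

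Markers of other cell types were counted in the same way, beside 9.85% of all genes called lower and 10.2% higher. The counts were not tested against those shares. Of the T and natural killer cell markers 1 of 12 fell (Gzmb, −0.15), with list averages of 3.63 to 4.28 in vehicle livers, and of the B cell markers 2 of 5 fell (Cd79b, −0.16, and Ms4a1, −0.13). Neutrophil markers had 1 of 5 lower (S100a9, −0.23), endothelial markers 2 of 9 (Stab2, −0.30, and Kdr, −0.13) and stellate cell markers 1 of 8 (Reln, −0.15). Dendritic cell markers had 2 of 6 higher (Ly6d, 0.28, and Ccr9, 0.13), with vehicle means of 6.17 and 7.08. The 4 not called were dimmer, with vehicle means from 2.53 (Xcr1) to 3.94 (Flt3). Of 9 hepatocyte markers Hnf4a fell by 0.20 and Cps1 rose by 0.17. Their part in the result was not tested.

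The strains began from unequal levels. In the fit of all 62 strain and treatment groups, with animals as replicates, vehicle livers differed between strains for 33 of the 35 genes by limma's F test, where 53.4% of all genes were called. Only Oas2 (adjusted p = 0.0809) and Oas3 (adjusted p = 0.663) were not. The largest F values belonged to Usp18 (15.50) and Rtp4 (15.20). The SD of the vehicle strain means had a median of 0.52 over the 35 genes and 0.17 over all genes. A probe matches the reference sequence, so a strain's own sequence variant can lower a probe set's signal in all its animals, and such a variant would count here as a strain difference.

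BUB/BnJ stood highest. Its mean over the 35 genes was 7.00 in vehicle livers and 7.10 under isoniazid, and it held the highest strain mean of 20 of the 35 genes in vehicle livers and of 28 under isoniazid. Its 4 vehicle animals had means over the genes of 6.55, 6.45, 7.98 and 7.02, and its 4 isoniazid animals 6.41, 7.50, 7.46 and 7.01. The animals of this strain thus spread over more than a log2 unit in both groups, and the groups overlapped. The rank of BUB/BnJ in vehicle livers leans on the animal at 7.98. CBA/J, the next strain, averaged 6.66, above the BUB/BnJ animals at 6.55 and 6.45 and below that at 7.02. For Igtp the animal at 7.98 had 11.55, and the others, at 7.50 to 8.30, lay below the CBA/J mean of 8.38. For Oas1a the others, at 6.97 to 7.81, lay above the next strain mean, 6.73 in C3H/HeJ. The count of 20 was not retaken without the animal at 7.98. BUB/BnJ also had the highest macrophage marker average of the 31 strains in vehicle livers, 7.75, and the vehicle animal with the highest interferon-induced mean had the highest macrophage average of the 4, 8.61. The part of macrophages in the level of this strain was not tested.

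The lowest vehicle means over the 35 genes were those of 129S1/SvImJ (5.28), LP/J (5.47), FVB/NJ (5.48), C58/J (5.49) and PWK/PhJ (5.55). From LP/J to PWK/PhJ the differences were small beside the spread between animals, whose SD had a median of 0.19 over the vehicle groups. 129S1/SvImJ stood further below, and the SD between its vehicle animals was 0.11, beside 0.12 in LP/J. 129S1/SvImJ also had the lowest macrophage average, 5.81. SWR/J came next at 5.60, but that mean rests on 1 animal: its 4 vehicle animals had means of 5.22, 6.71, 5.28 and 5.19. Without animal 2 the SWR/J mean was 5.23, below the 5.28 of 129S1/SvImJ, so which strain stood lowest turns on that animal. In SWR/J vehicle animal 2, 31 of the 35 genes were above all 3 other animals. Gbp2 stood at 10.24 against a mean of 4.63 in the other 3, Cxcl9 at 10.34 against 4.94 and Igtp at 10.83 against 6.63. Its macrophage average was 7.97 against 6.28 to 6.68, and its neutrophil average 5.50 against 4.02 to 4.64. Its B cell average was 4.90 against 3.83 to 3.99, its T and natural killer cell average 4.53 against 3.79 to 3.94, and its dendritic cell average 4.96 against 4.49 to 4.61. Its endothelial and stellate cell averages lay within the range of the other 3, and its hepatocyte average was 13.18 against 13.20 to 13.32. The part of these cells in its values was not tested. Rsad2 was 5.92 in that animal against 5.13 to 5.61 in the others.

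**Figure D2:**
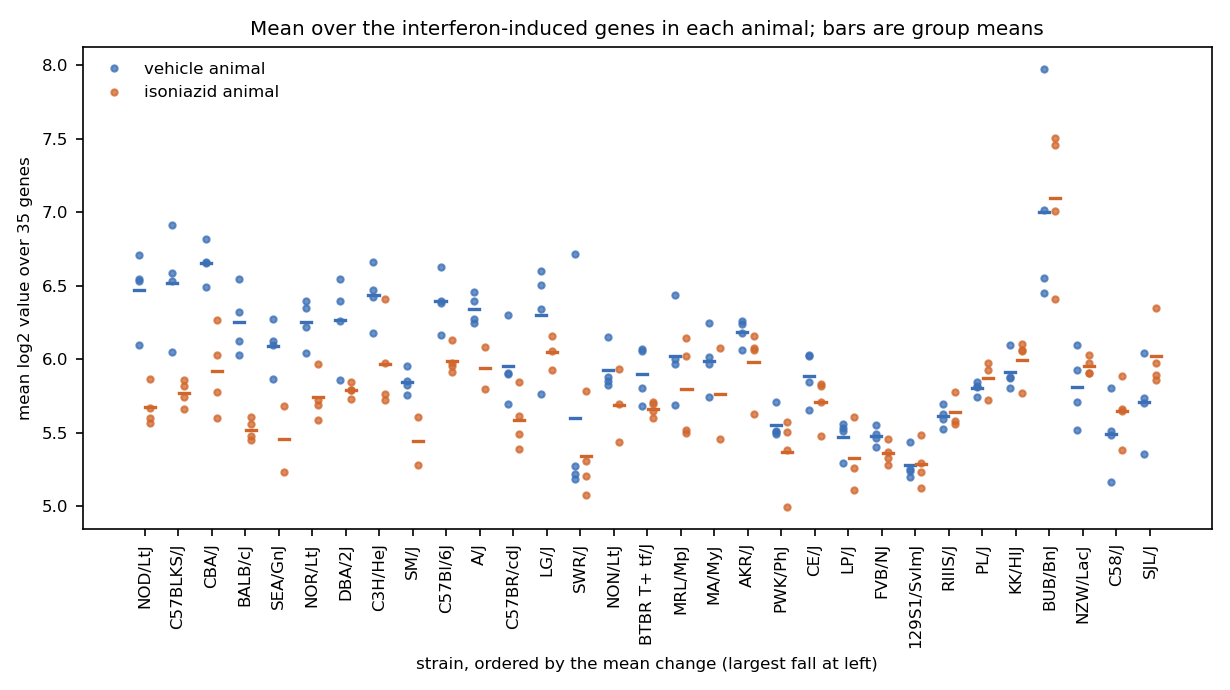
Mean log2 value over the 35 genes (vertical axis) in each animal, vehicle in blue and isoniazid in orange, with group means as bars and strains ordered by the change. The mean change is −0.80 in NOD/LtJ at the left, BUB/BnJ lies highest in both groups, and a single SWR/J vehicle animal stands at 6.71 above 3 others near 5.2.

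The fall was not uniform across strains. The mean change over the 35 genes was below 0 in 23 strains and above 0 in 8. The isoniazid change differed between strains for 19 of the 35 genes by limma's interaction F test, where 17% of all genes were called. The interaction was strongest for Ifit1 (F = 3.88, adjusted p = 5.45e-07), Dhx58 (F = 3.58) and Rtp4 (F = 3.49). Of the 12 genes with no call over strains, 6 had an interaction call (Dhx58, Oasl1, Ifi35, Ifih1, Ddx58 and Irgm1). Mx1, with F = 0.93, did not. The count of 19 was 9 with animals numbered 1 left out of every group, 11 without those numbered 2, 15 without 3 and 11 without 4. The share of all genes was not counted in these refits.

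Within single strains, tested by limma in the fit of 62 groups, 59 of the 1085 contrasts of a gene and a strain were called lower (5.44%) and 4 higher (0.369%). Over all genes and strains 0.723% were called lower and 1.27% higher. The lower calls lay in 10 strains. Rsad2 was called lower in 8 of them, Ifit1, Ifit3 and Rtp4 in 6 each, and Irf7, Bst2 and Usp18 in 4 each. The count of 59 fell to 32, 38, 29 and 42 when animals numbered 1, 2, 3 or 4 were left out, with the share of all genes not counted there.

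NOD/LtJ had the lowest mean change, −0.80 over the 35 genes, with 34 of them lower by mean and 10 called lower, against 0.507% of all genes called lower in that strain. Ifit1 in NOD/LtJ was 7.28, 6.59, 5.59 and 6.99 in the 4 vehicle animals and 4.49, 4.43, 4.36 and 4.55 in the 4 isoniazid animals. The groups did not overlap, and the change of Ifit1 was −2.15 (limma adjusted p = 0.00034 within the strain). Usp18 in NOD/LtJ was 7.78, 7.07, 7.03 and 7.68 against 5.08, 5.84, 5.57 and 6.19, a change of −1.72 (limma adjusted p = 0.00436). The macrophage list changed by −0.21 in this strain.

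C57BLKS/J had a mean change of −0.75 with 10 genes called lower (0.496% of all genes), with the smallest p for Irf7 at −1.67 (limma adjusted p = 0.000264). Gbp6 in C57BLKS/J was 4.96, 5.92, 5.79 and 8.22 in vehicle animals and 4.49, 4.53, 4.25 and 3.82 in isoniazid animals, so the groups did not overlap but 1 vehicle animal stood far above the rest. The macrophage list changed by −0.94 here, and its part in the fall was not tested.

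CBA/J had −0.74 with 7 genes called lower (0.402% of all genes), and Rtp4 had the smallest p. Rtp4 in CBA/J was 9.13, 9.31, 9.16 and 8.74 in vehicle animals and 6.65, 7.79, 6.78 and 8.09 in isoniazid animals, a change of −1.75 (limma adjusted p = 0.000128) with no overlap. BALB/cJ had −0.73, also with 7 genes called lower (0.628% of all genes). Rsad2 in BALB/cJ was 7.50, 7.24, 8.05 and 8.06 against 5.98, 6.32, 5.73 and 5.75, a change of −1.77 (limma adjusted p = 1.13e-05), and every vehicle animal lay above every isoniazid animal. The macrophage list changed by −0.44 in CBA/J and by −0.07 in BALB/cJ, beside −0.74 and −0.73 for the interferon-induced genes.

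SEA/GnJ, with 2 isoniazid animals, had −0.63 and 6 genes called lower (1.57% of all genes), and NOR/LtJ had −0.51 and 5 (3.63%). Their macrophage lists changed by −0.41 and −0.56. PWK/PhJ, a strain derived from wild mice, had a mean change of −0.19 with 5 genes called lower, where 4.73% of all genes were. Iigp1 in PWK/PhJ was 11.02, 10.66, 10.61 and 10.91 in vehicle animals and 8.07, 8.66, 9.81 and 9.88 in isoniazid animals. The change of Iigp1, −1.70 (limma adjusted p = 1.05e-09), was one of the 5 calls, with Irf7 (−1.07), Bst2 (−0.75), Parp14 (−0.70) and Ifi35 (−0.48). Gbp2 and Cxcl9 had mean changes of 0.62 and 0.47 there and were not called. The macrophage list changed by −0.46 in PWK/PhJ.

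At the other end, SJL/J had a mean change of 0.31, with 31 of the 35 genes higher by mean. Its vehicle animals had means over the genes of 5.74, 5.70, 6.04 and 5.35, and its isoniazid animals 5.98, 5.89, 5.86 and 6.35. The groups overlapped, and the size of the rise leans on animal 4 of each group. In limma 0 were called higher there, where 0.347% of all genes were. At an unadjusted p under 0.05, 5 of the 35 were higher, and the share of all genes at that threshold was not counted. Ifit1 in SJL/J was 4.56, 4.41, 5.93 and 3.57 in vehicle animals and 6.05, 5.38, 5.15 and 4.98 in isoniazid animals, and the groups overlapped. The macrophage list changed by 0.62 in SJL/J, the largest rise of any strain. C58/J had a mean change of 0.15 with Dhx58 (0.75) and Ifih1 (0.72) called higher, where 3.63% of all genes were called higher, and NZW/LacJ had 0.14 with Dhx58 (0.70) and Ddx58 (0.47) called higher, where 9.32% were. Dhx58 was called lower in SEA/GnJ (−0.82, limma adjusted p = 0.0467). The macrophage list changed by 0.12 in C58/J and 0.02 in NZW/LacJ. In SWR/J the mean change was −0.25 with all 4 vehicle animals and 0.12 without animal 2, so its direction turns on that animal.

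**Figure D3:**
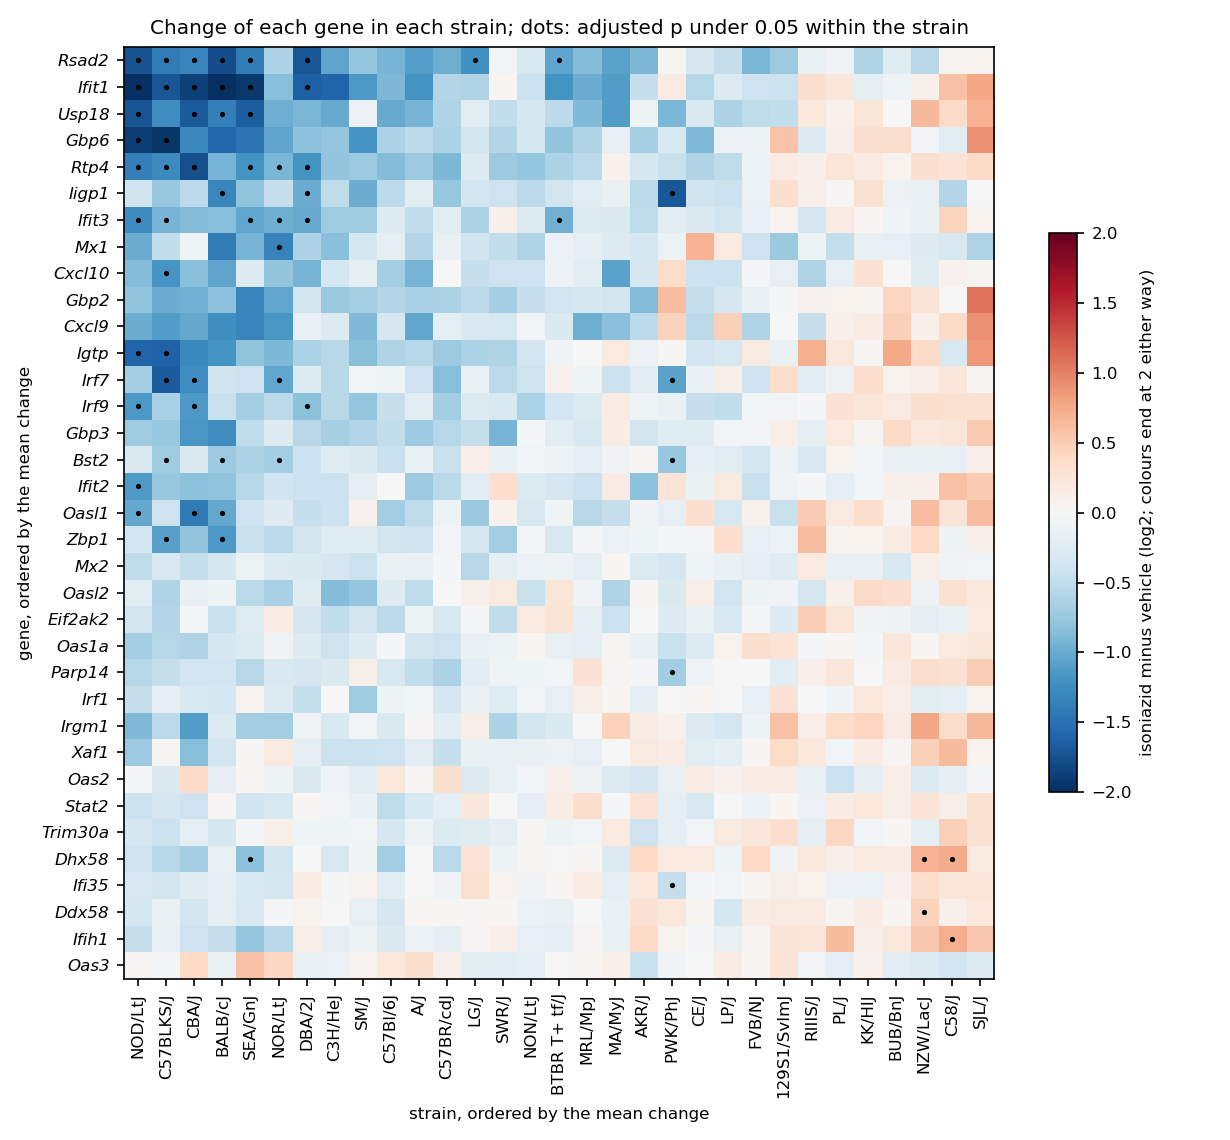
Isoniazid minus vehicle difference (log2, colour, blue lower and red higher) of each of the 35 genes (rows) in each of 31 strains (columns), both ordered by mean change, with dots on the 63 contrasts called within a strain. Blue fills the upper left, where Rsad2 and Ifit1 were called lower in NOD/LtJ to SEA/GnJ, and pale red covers most of the last 8 strains.

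Over strains the change of the macrophage list and that of the 35 genes had r = 0.52 (31 strains, a description of values from the same animals). The same value was −0.50 for dendritic cell markers and −0.47 for B cell markers. It was 0.38 for endothelial, 0.30 for stellate cell, 0.26 for neutrophil, 0.10 for hepatocyte and −0.07 for T and natural killer cell markers. The part of these cells in the strain differences was not tested.

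The question of whether strains with a high resting level lost more under isoniazid was asked with separate animals on each side. The level was taken from vehicle animals 1 and 2, and the change was taken as isoniazid animals minus vehicle animals 3 and 4, since a level and a change that share vehicle animals are tied by construction. Of the 35 genes, 32 had r below 0 between level and change over the 31 strains, as did 69.3% of all genes, and the median r was −0.36 against −0.10. With vehicle animals 3 and 4 for the level and 1 and 2 for the change, 24 of the 35 genes and 58.5% of all genes had r below 0, and the median r was −0.12 against −0.04. By the moderated slope test, with variances squeezed by limma, 1 gene, Ifit1, was called at an adjusted p under 0.05. At that threshold 0.237% of all genes were called with a negative slope. At an unadjusted p under 0.05, 20 of the 35 had a negative slope, and the share of all genes at that threshold was not counted. The slope of Ifit1 was −0.53 ± 0.10 (SE; adjusted p = 0.00596), which is the log2 change per log2 unit of vehicle level. For Ifit1 r was −0.68, Spearman's rho was −0.71, and r was −0.69 without SWR/J and FVB/NJ, the strains farthest from the median level. In the exchanged split r for Ifit1 was −0.48 (−0.66 without SWR/J and BUB/BnJ), and 0 of the 35 genes were called by the same test. There 2 had a negative slope at an unadjusted p under 0.05, again with no share of all genes counted.

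For the mean over the 35 genes, r was −0.59 and rho −0.65 over 31 strains, and r was −0.55 without 129S1/SvImJ and CBA/J. With the vehicle animals exchanged r was −0.10 and rho −0.41. That difference between the splits turned on BUB/BnJ, whose vehicle animals 3 and 4 averaged 7.50 and animals 1 and 2 averaged 6.50. Without BUB/BnJ r was −0.59 and −0.54 in the 2 splits. These are descriptions with no test on the mean.

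**Figure D4:**
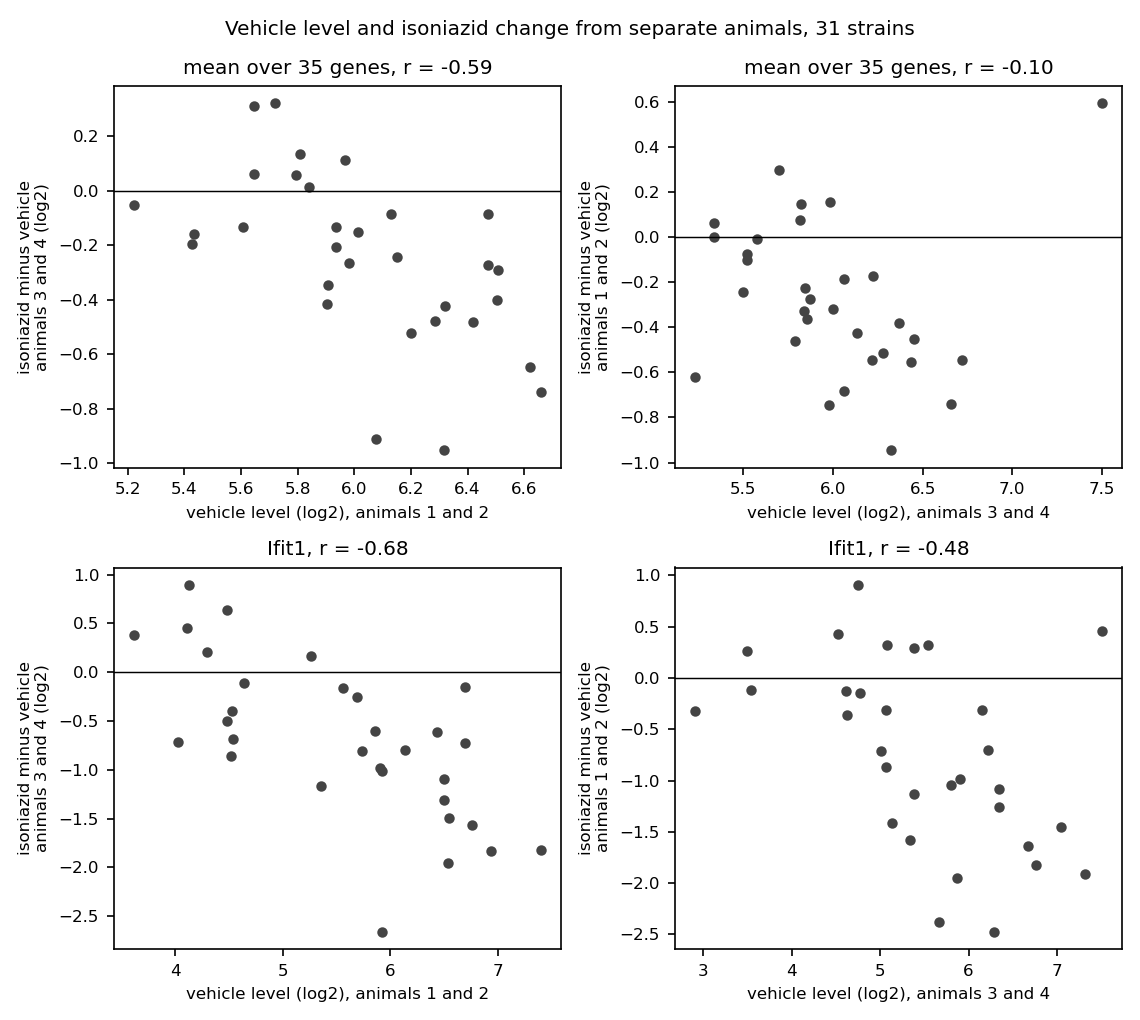
Vehicle level (horizontal axis, log2) and isoniazid minus vehicle difference (vertical axis, log2) from separate vehicle animals in 31 strains (points), for the mean over the 35 genes above and for Ifit1 below, with both assignments of animals side by side. The point at 7.50 in the upper right panel is BUB/BnJ, and the 2 upper panels have r of −0.59 and −0.10.

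The levels of the strains kept much of their order. Vehicle and isoniazid means over the 35 genes had r = 0.70 over 31 strains, and the 2 sets of vehicle animals had r = 0.78. The spread between strains was smaller under isoniazid for 25 of the 35 genes, as it was for 28.4% of all genes, and the median SD of strain means was 0.43 under isoniazid against 0.52 in vehicle livers. Over all genes it was 0.19 against 0.17. For Ifit1 the SD of strain means went from 1.03 to 0.70 and for Cxcl10 from 0.53 to 0.33, while for Iigp1 it went from 0.45 to 0.61.

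**Figure D5:**
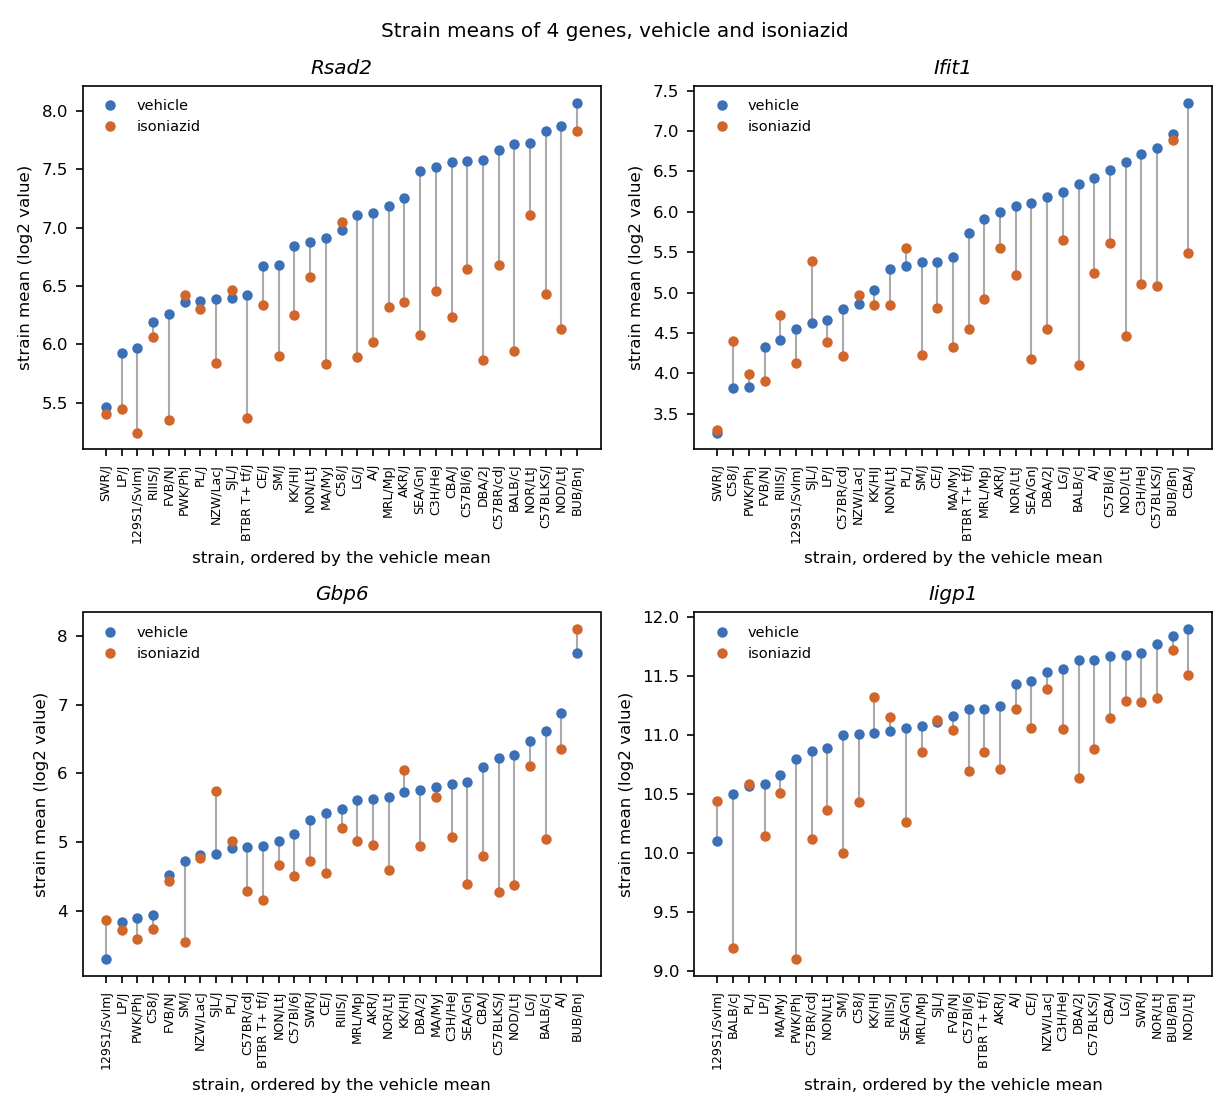
Strain means (vertical axis, log2) of Rsad2, Ifit1, Gbp6 and Iigp1 in vehicle (blue) and isoniazid (orange) livers, with strains ordered by the vehicle mean of each gene and lines joining the 2 means. For Ifit1 long lines gather at the right, apart from BUB/BnJ, while for Iigp1 the longest lines are those of PWK/PhJ and BALB/cJ, toward the left of the order.

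Among animals of the same strain and treatment, most of the genes rose and fell together. The median r over the 595 pairs of genes was 0.32 (235 arrays, 62 groups, values sharing each array). Gbp6 and Rtp4 followed the mean of the other members most closely, each with r = 0.87, then Gbp3 (0.85) and Igtp (0.84). Oas3 (−0.14), Oas2 (0.01) and Eif2ak2 (0.04) did not follow it. Of genes outside the list the closest were Irgm2 (r = 0.89), Gbp7 (0.80) and Ifi47 (0.77), picked by this measure after the values were seen. Irgm2 fell by 0.35 and Gbp7 by 0.22, while Ifi47 had 0.02 (limma adjusted p = 0.878).

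Steatosis status was compared over strains. In limma 0 of 35 genes differed in isoniazid change between the 13 steatosis strains and the other 18, and 1 (Zbp1) had an unadjusted p under 0.05. For the vehicle level 0 differed, and 5 had an unadjusted p under 0.05. In both comparisons 0% of all genes were called at an adjusted p under 0.05, and the share at an unadjusted p under 0.05 was not counted. Rsad2 changed by −0.85 in steatosis strains and −0.72 in the others, a difference of −0.13 with an interval of −0.51 to 0.25, and for Ifit1 the difference was −0.12 with an interval of −0.68 to 0.45. The vehicle level of Iigp1 was 0.45 higher in steatosis strains, with an interval of 0.18 to 0.73 and an adjusted p of 0.988. With animals in place of strains as replicates, 16 genes were called for the vehicle level, but status is a property of the strain and animals of a strain are not independent of it. The share of all genes called that way was not counted.

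The rest of the pathway was counted from lists drawn up with earlier results known. Over all genes 9.85% were called lower and 10.2% higher, and counts in lists this short were not tested against those shares. Of the interferon ligands 1 of 6 measured fell, Ifna2 by 0.12 from a vehicle mean of 4.91. Among receptors and kinases 3 of 9 fell, Il10rb by 0.14, Jak2 by 0.11 and Ifngr2 by 0.19, and Ifnlr1, a receptor chain for interferon lambda, rose by 0.09 at an adjusted p of 0.05 as rounded. Ifnar1 and Ifnar2, the type I receptor chains, had −0.03 and 0.00. Of Stat and Irf factors outside the list 2 of 5 fell, Irf8 by 0.18 and Irf5 by 0.13. Of 8 upstream adaptors and kinases 3 rose, Mavs by 0.20, Ticam1 by 0.14 and Ikbke by 0.27, and 1 fell, Tbk1 by 0.10. Of 9 brakes on signalling 3 fell, Socs3 by 0.49, Adar by 0.14 and Ptpn2 by 0.09. Socs3 is induced mainly through Stat3.

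A wider list of 54 further measured interferon-induced genes had 15 lower and 2 higher, with a median change of −0.04 against −0.22 for the 35. Of all genes 9.85% were called lower and 10.2% higher. The called genes with the largest t were Ifitm2 (−0.29, a membrane protein that blocks virus entry), Cmpk2 (−0.36, a nucleotide kinase whose gene lies beside Rsad2), Tapbp (−0.19, a chaperone of antigen loading) and Trim25 (−0.17, the ligase that activates RIG-I). The 2 that rose were Mlkl, the effector of necroptosis, by 0.36 and Ifi27l2b by 0.30.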

How the data were processed

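Liver RNA of 235 mice was measured on Affymetrix 3′ arrays, 1 array per animal. The deposited log2 values, for 44721 probe sets, were made by the authors using RMA; the submitters' processing notes name Affymetrix Power Tools and give no version. RMA gives every array a like distribution, which takes out any shift shared by all genes and compresses low values. Array medians ran from 3.96 to 4.21, and 21 arrays (11 vehicle, 10 isoniazid) had a narrower spread than the others and were kept. The number of arrays limits the precision.

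Probe sets were named through the supplied platform annotation: 34717 had 1 symbol, 872 several and 9072 none listed, and 60 were controls. Each gene took its probe set with the highest mean, with no filter on dim genes. Of the 35 genes, 11 had a mean level below the median of all genes.

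Tests used limma 3.58.1 in R 4.3.3, two-sided, with Benjamini-Hochberg adjustment over 18146 genes and a threshold of 0.05. The change over strains used 31 strain differences (mean of isoniazid minus mean of vehicle animals). Strain differences, the interaction and changes within strains came from 1 fit of 62 groups with 173 residual degrees of freedom, and within-strain p-values were adjusted in each strain. Intervals are 95% intervals. The slope test took the level and the change from separate vehicle animals. The scripts were tested on simulated data. P-values over animals measure the spread between animals of a strain as the labels give them. The genes and all lists were chosen with earlier results of these data known. Every measured gene of the list is named by role, with strain ranges for the 8 lowest mean changes, the 2 largest F values and the 2 changes nearest 0, and from each other list up to 4 called genes with the largest t. Single strains are described for the 6 lowest and 3 highest mean changes, and others were named after their values were seen. Numbers of vehicle and isoniazid animals of a strain do not pair them: same-numbered animals had a median correlation of 0.00 (111 pairs) and different-numbered ones 0.01 (333 pairs).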

Additional observations from a re-analysis of the deposited data

Results flagged for a closer look

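In 53 groups of 4 animals the mean over the 35 genes was searched for an animal far from the others, and 4 groups had one; chance alone picks about 1 group in 20. SWR/J vehicle animal 2 had 6.71 where the others had 5.19 to 5.28. KK/HIJ isoniazid animal 2 had 5.77 where the others had 6.05 to 6.10. NON/LtJ vehicle animal 2 had 6.15 against 5.82 to 5.88, and PWK/PhJ vehicle animal 1 had 5.71 against 5.49 to 5.51.

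For 19 genes the effect of isoniazid differed between strains by limma's interaction F test. The F values were 3.88 for Ifit1, 3.58 for Dhx58, 3.49 for Rtp4, 3.38 for Iigp1, 3.35 for Oasl1, 3.28 for Rsad2, 2.99 for Irf9, 2.83 for Usp18, 2.75 for Ifit3 and 2.59 for Ifi35. They were 2.40 for Irf7, 2.32 for Ifit2, 2.27 for Ifih1, 2.18 for Igtp, 2.04 for Ddx58, 1.94 for Bst2, 1.94 for Zbp1, 1.91 for Irgm1 and 1.89 for Gbp6.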

How the results depend on the processing

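The count of genes lower over strains was 18 to 25 over 45 other settings, with 0 higher in each, and the mean change over the genes was −0.29 to −0.24 over 43. The share of all genes called lower was lowest, 6.74%, without animals numbered 1, where 18 of the 35 genes were lower. It was highest, 16.1%, without dim genes, where 21 of 31 were. Rsad2, Ifit1, Usp18, Gbp6, Rtp4, Iigp1 and Ifit3 kept direction and call in all 45, and Mx1 in the 44 that held it, since it was dropped with the dim genes. With the animal number as a block, where numbers do not pair the animals, 25 genes were lower, 23 of them shared with the 23 reported, and the interaction count was 14. The interaction count of 19 was 9 to 21 with an animal number or a strain left out, and the 59 calls within strains became 29 to 42 with an animal number left out. The slope count of 1 was 2 without dim genes, 3 with scan date as a term, 4 without the narrow-spread arrays, 2 with the replicate block and 2 over strains with 4 isoniazid arrays. It was 0 with vehicle animals 3 and 4 for the level, 1 to 2 with a strain left out, and 30 with all vehicle animals in both level and change, where the shared animals tie them by construction. Leaving out SWR/J vehicle animal 2, chosen after seeing the data, gave 4. Steatosis status and vehicle level had 16 calls with animals as replicates. The cause was not tested for the other moves. For the interaction, within-strain, slope and steatosis counts the share of all genes was not counted in these other settings.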
